A study of Mus musculus with 32 samples.

Results

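Reactive astrocyte genes are the transcripts that astrocytes raise when the brain is injured or inflamed, and 8 of them were followed here among the 33000 genes counted: Gfap, Vim, Serpina3n, Lcn2, Cd44, Osmr, Steap4 and Cp. They were chosen by symbol, as members of a commonly used reactive astrocyte panel, and all 8 were found in the count table. RNA came from frontal cortex of 3-month-old C57BL/6 mice that were either wild-type (WT) or homozygous for GFAP-IL6, a transgene that places the cytokine interleukin 6 under the Gfap promoter so that astrocytes secrete it. Libraries were made by 3'Pool-seq, a method that tags the 3' end of polyadenylated RNA with a sample index during reverse transcription and then pools the samples, from 50, 10, 1 and 0.5 ng of total RNA. With 4 libraries for each genotype at each input, the series held 8 groups and 32 libraries.

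Interleukin 6 binds its receptor together with gp130 and activates STAT3, a transcription factor through which astrocytes turn on Gfap and other genes of the reactive state. Gfap has a second tie to these mice, since the transgene is driven by its promoter, so Gfap marks both the reactive state and the promoter in use. Among the others, Vim encodes the partner filament of GFAP, Serpina3n, Lcn2 and Cp encode secreted proteins of the acute phase, Osmr and Cd44 encode cell surface receptors, and Steap4 encodes a metalloreductase.

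The promoter windows of the 8 genes were searched for letters that STAT factors are known to bind, because STAT3 is the factor named above and Gfap's own promoter drives the transgene. RefSeq windows of GRCm38.p6, from 250 bases before to 50 bases after each annotated start, were found for all 8 genes (9 windows, with a pair of overlapping windows for Cp). The motif TTCNNNGAA, which reads the same on both strands, occurred in 2 of the 9 windows and in 8.3% of all 32851 windows. The narrower form TTCCNGGAA, contained in the first motif, occurred in the same 2 windows and in 1.15% of all windows. The 29-base stretches around both matches, with the match in capitals, are given 5' to 3' on the strand of the gene, for Gfap at chr11:102897184-102897212 on the minus strand and for Steap4 at chr5:7960346-7960374 on the plus strand.
Gfap: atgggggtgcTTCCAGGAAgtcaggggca
Steap4: ggttgaactcTTCCCGGAAactttgcttc
The Gfap match lay across the RefSeq start of its window, and the Steap4 match began 116 bases before the RefSeq start of its own. In the GENCODE annotation the Gfap span begins further upstream, at chr11:102900912 on the minus strand. The C/EBP letters TTGCNNNAA, searched on both strands, were present in both Cp windows and in no window of the other genes, against 9.56% of all windows. The NF-kB motif was present in 8 of the 9 windows, and in 50.8% of all windows. These are matches of letters only, and no binding was measured.

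Total counts per library ranged from 1071895 to 7538356 at 50 ng, from 1064514 to 9840302 at 10 ng, from 261378 to 2800270 at 1 ng and from 295022 to 2722389 at 0.5 ng. Levels are given as CPM, which divides each count by the total of its library, without correction for gene length, because reads come from the 3' end. With 3 counts taken as the smallest level a library could show, that limit lay between 0.305 and 11.5 CPM, and it covers counting error only. The genotype labels were checked with Il6 itself. At 50 ng, Il6 ranged from 0.717 to 8.40 CPM in the GFAP-IL6 libraries and from 0 to 0.277 CPM in the WT libraries, and the groups did not overlap at 10 ng either. At 1 ng Il6 was at 10.4 CPM in WT replicate 3, and at 0.5 ng no library held an Il6 count. Neuron markers summed to between 5964 and 7161 CPM in the libraries at 50 ng.

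Gfap, the main intermediate filament of astrocytes, was higher in GFAP-IL6 mice and was the only one of the 8 genes to pass the test at any input. At 50 ng the WT libraries held 9.96, 12.04, 14.5 and 8.89 CPM, and the GFAP-IL6 libraries held 43.7, 64.4, 74.0 and 30.6 CPM. The lowest GFAP-IL6 library was thus above the highest WT library, and the means were 53.2 ± 19.6 and 11.3 ± 2.46 CPM (SD, n = 4 each), a ratio of 4.69. At 10 ng the WT libraries held 9.87, 7.26, 8.08 and 6.77 CPM and the GFAP-IL6 libraries 41.6, 51.7, 68.2 and 25.5 CPM. The groups were again apart, and the ratio of the means was 5.84. In edgeR's quasi-likelihood test the log2 fold change was 2.21 ± 0.27 (SE) at 50 ng (Benjamini-Hochberg adjusted p = 0.000103) and 2.48 ± 0.28 at 10 ng (adjusted p = 3.53e-07), with edgeR run on the 4 libraries of each genotype. Of all genes tested, 0.28% were called higher at 50 ng and 0.249% at 10 ng, a call being an adjusted p under 0.05 with an absolute log2 fold change above 1. After thinning of each library to the smallest total the log2 fold changes were 2.52 ± 0.53 and 2.33 ± 0.80, and neither passed (edgeR adjusted p = 0.247 and 0.981). In tissue RNA, more cells of a type and more RNA per cell cannot be told apart from the level of a single gene. The 12 astrocyte markers outside the panel had log2 fold changes from -0.33 (Aldh1l1) to 0.55 (Slc1a2) at 50 ng, and none was called.

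**Figure D1:**
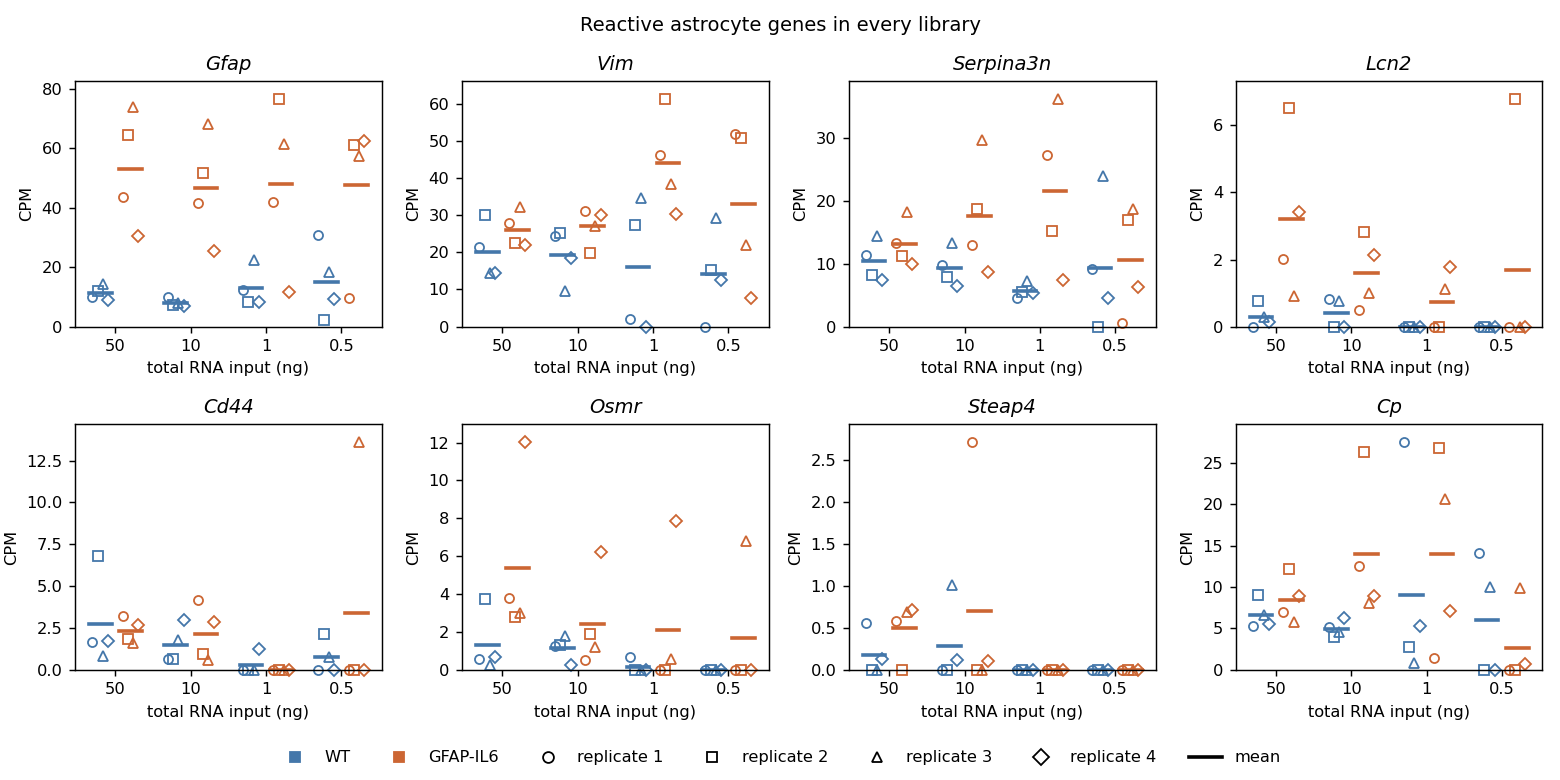
CPM of the 8 reactive astrocyte genes (y axis, linear from 0, a separate scale for each gene) at each RNA input (x axis, ng) in WT (blue) and GFAP-IL6 (orange) libraries, with a point per library, the marker giving the replicate number, and a bar at the group mean. Gfap groups are apart at 50 and 10 ng, whereas Lcn2, Osmr, Cd44 and Steap4 lie near 0 in most libraries at 1 and 0.5 ng.

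With less RNA the Gfap means stayed near those at higher input while the libraries spread out. At 1 ng the WT libraries ranged from 8.18 to 22.5 CPM and the GFAP-IL6 libraries from 11.8 to 76.5 CPM, with 3 of the 4 GFAP-IL6 libraries above every WT library. At 0.5 ng the range was 2.17 to 30.8 CPM in WT and 9.61 to 62.4 CPM in GFAP-IL6, again with 3 of 4 above. Log2 fold changes were 1.82 ± 0.63 and 1.58 ± 0.92 (SE), and neither passed (edgeR adjusted p = 0.998 and 0.99999). The share of all genes called higher was 0.0323% at 1 ng and 0.0117% at 0.5 ng. Ordered by mean, the 4 GFAP-IL6 groups came first, at 53.2 (50 ng), 47.9 (1 ng), 47.6 (0.5 ng) and 46.7 CPM (10 ng), followed by the WT groups at 15.1 (0.5 ng), 12.8 (1 ng), 11.3 (50 ng) and 7.998 CPM (10 ng). Every pair of neighbours in that order overlapped. Spread between libraries rose as input fell for genes at large, with a biological coefficient of variation in edgeR of 0.214 (50 ng), 0.238 (10 ng), 0.520 (1 ng) and 0.768 (0.5 ng).

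When the counts of same-numbered libraries were added over the 4 inputs, to give the scarce genes the most depth, Gfap was at 7.99 to 13.5 CPM in WT and 29.8 to 67.6 CPM in GFAP-IL6. Its log2 fold change was 2.15 ± 0.24 (SE, edgeR adjusted p = 5.18e-06), in a comparison in which 0.387% of all genes were called higher. The sums are made of the same libraries and give no independent evidence. Of the 8 genes, 5 passed edgeR's filter on low counts at 50 ng, 4 at 10 ng, 4 at 1 ng, 3 at 0.5 ng and 6 in the sums, and 1, 1, 0, 0 and 1 of them were called. By the plain CPM values of all 8 genes, groups were apart with GFAP-IL6 higher for 2 genes at 50 ng (Gfap and Lcn2), 2 at 10 ng (Gfap and Cp), 1 at 1 ng (Serpina3n), 0 at 0.5 ng and 2 in the sums (Gfap and Lcn2). Among all genes with a count in at least 4 of the 8 libraries, 2.32%, 2.63%, 1.72%, 1.5% and 2.72% were apart in that direction. Each such gene had a two-sided exact permutation p of 0.0286, the smallest that 4 against 4 libraries allow, and an adjusted p of 0.137 at the single inputs over the 24 combinations of gene and input tested.

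**Figure D2:**
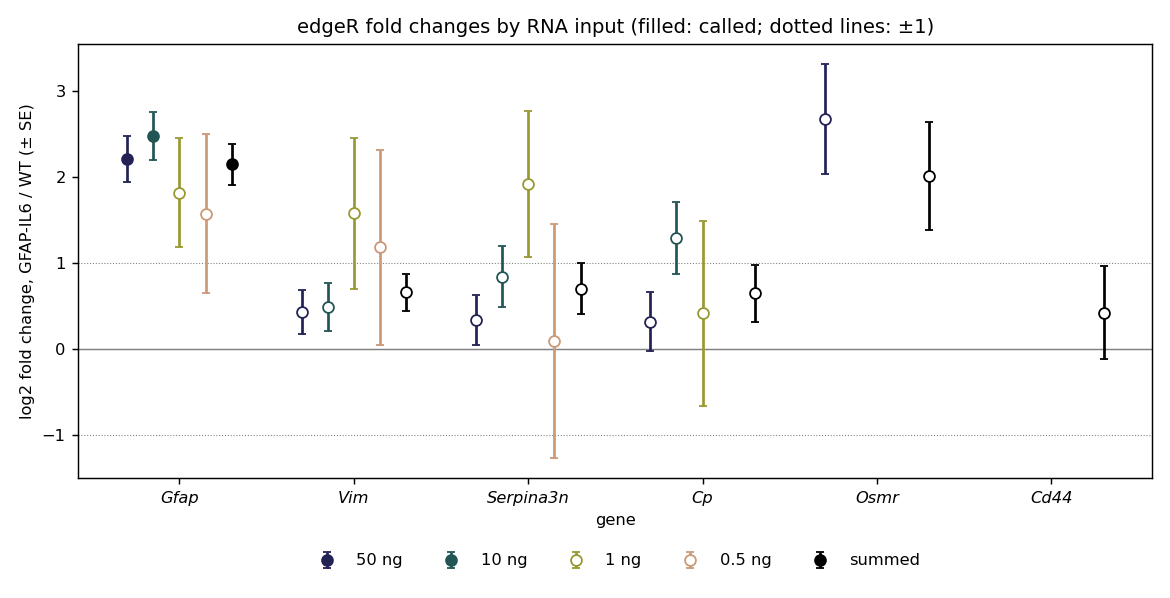
Log2 fold change of GFAP-IL6 against WT from edgeR (y axis, bars ± SE) for the genes that passed the filter on low counts (x axis), at each input and in the counts summed over inputs. Filled points were called, which holds for Gfap at 50 ng, at 10 ng and in the sums, and the bars lengthen at 1 and 0.5 ng.

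The genotype difference of Gfap was next set beside that of each other gene that passed the filter on low counts, within the same library. A change shared by these genes would leave the ratio alike in both genotypes, for genes far above the 1 CPM added to each. Lcn2 and Steap4 entered no pair, Cd44 entered in the sums only, and Osmr at 50 ng and in the sums. The Lcn2 means, on few counts, had a ratio of 11.1 against 4.69 for Gfap at 50 ng, and 4.07 against 5.84 at 10 ng. The log2 ratio of Gfap to Serpina3n (each as CPM plus 1) averaged 0.14 ± 0.29 in WT and 1.89 ± 0.40 in GFAP-IL6 at 50 ng (SD, n = 4 each), a difference of 1.75. Against Vim the difference was 1.66 and against Cp it was 1.79. All 4 GFAP-IL6 libraries lay above all WT libraries for these 3 genes, with p = 0.0286 in a two-sided exact permutation test and 0.0381 after adjustment over the 12 pairs tested. At 10 ng the differences against Serpina3n (1.59) and Cp (1.14) passed as well, while against Vim 3 of 4 libraries were above and the difference of 1.82 did not pass (exact permutation p = 0.0571, adjusted p = 0.0686). In the sums, Gfap rose more than Vim, Serpina3n, Cp and Cd44, by 1.40, 1.40, 1.44 and 1.81 on the log2 scale. Among the genes paired, Osmr was the exception, and it passed the filter only through its level in the GFAP-IL6 libraries. The difference against it was 0.60 at 50 ng (exact permutation p = 0.486) and 1.06 in the sums (exact permutation p = 0.143), neither of which passed. The added 1 CPM shrinks the change of a gene as scarce as Osmr. Its edgeR log2 fold change was above that of Gfap at 50 ng, 2.68 against 2.21, and near it in the sums, 2.01 against 2.15. In all, 9 of the 12 pairs passed at the smallest p that the design can give, and with any library left out, 4 against 3 cannot go below 0.0571. All 12 pairs share the Gfap values and the sums reuse the same libraries, so the pairs are not independent. Gfap alone was apart at 50 ng, at 10 ng and in the sums, so its ratio to an unchanged gene would tend to be apart too. The share of all genes whose ratio to Gfap would pass was not computed.

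**Figure D3:**
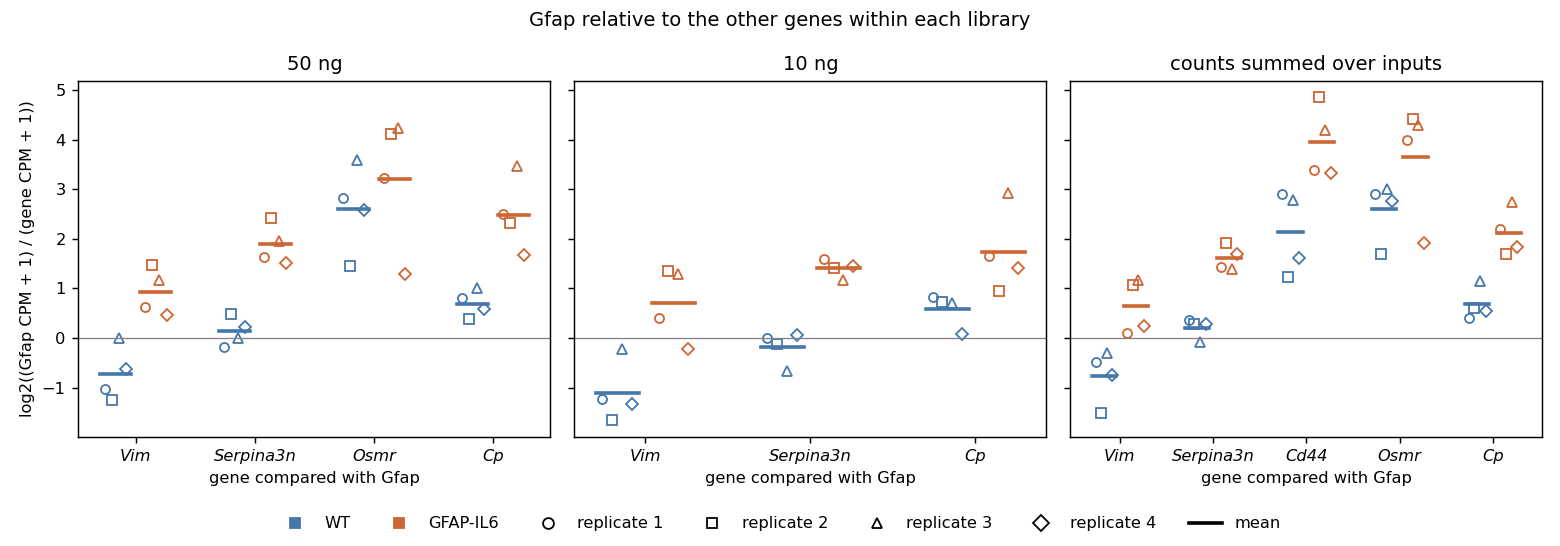
Log2 ratio of Gfap to another gene within each library (y axis, each as CPM + 1) at 50 ng, at 10 ng and in counts summed over inputs, in WT (blue) and GFAP-IL6 (orange), with a point per library and a bar at the mean. GFAP-IL6 libraries lie above WT libraries for Serpina3n and Cp in every panel, and GFAP-IL6 replicate 4 lies low against Osmr.

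Vim, the intermediate filament that co-assembles with GFAP, did not pass at any input. At 50 ng the WT libraries held 21.3, 30.1, 14.5 and 14.3 CPM and the GFAP-IL6 libraries 27.8, 22.4, 32.3 and 22.0 CPM. The groups overlapped, with a single GFAP-IL6 library above all WT libraries. Its log2 fold change was 0.43 ± 0.26 (SE) at 50 ng and 0.49 ± 0.27 at 10 ng, with 95% intervals of -0.07 to 0.93 and -0.05 to 1.02. In the sums it was 0.66 ± 0.21 (edgeR adjusted p = 0.315), with 3 of 4 GFAP-IL6 libraries above all WT libraries. At 1 ng Vim had no count in WT replicate 4 and reached 34.5 CPM in WT replicate 3, which shows how far single libraries scattered. Other intermediate filament genes of glia and neurons showed no common direction, as 4 of the 7 tested at 50 ng and 3 of the 6 tested at 10 ng had a positive log2 fold change, with medians of 0.00 and -0.04 beside 0.00 for all genes, and none was called.

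Serpina3n, a secreted inhibitor of serine proteases, overlapped between the genotypes at 50 ng, with WT libraries at 11.3, 8.27, 14.5 and 7.43 CPM and GFAP-IL6 libraries at 13.3, 11.2, 18.2 and 10.04 CPM. In both genotypes replicate 3 was highest and replicate 4 lowest. Log2 fold changes were 0.33 ± 0.29 (SE) at 50 ng, 0.84 ± 0.35 at 10 ng and 0.70 ± 0.30 in the sums, none of which passed (edgeR adjusted p = 0.855, 0.589 and 0.587). At 1 ng the GFAP-IL6 libraries, at 7.50 to 36.2 CPM, were all above the WT libraries, at 4.58 to 7.23 CPM, the latter resting on 2 to 13 counts each. The log2 fold change there was 1.92 ± 0.85 (edgeR adjusted p = 0.998). At 0.5 ng it was 0.09 ± 1.36.

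Cp, which encodes the copper-binding ferroxidase ceruloplasmin, overlapped between the genotypes at 50 ng and was apart at 10 ng. At 50 ng it was at 5.26, 9.03, 6.68 and 5.57 CPM in WT and 6.95, 12.1, 5.76 and 8.96 CPM in GFAP-IL6, a log2 fold change of 0.31 ± 0.34 (SE). At 10 ng it was at 5.14, 3.96, 4.55 and 6.30 CPM in WT and 12.6, 26.3, 8.13 and 8.94 CPM in GFAP-IL6. The groups did not overlap at 10 ng, where the log2 fold change was 1.29 ± 0.42 (edgeR adjusted p = 0.350). At 0.5 ng the order of the means turned, to 6.04 CPM in WT and 2.67 CPM in GFAP-IL6, with no count in 4 of the 8 libraries. The difference in genotype effect between 10 and 50 ng is given with the other genes below and did not pass.

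Lcn2, the iron-carrier-binding protein lipocalin 2, was scarce in WT cortex and was read at levels near the counting limit. At 50 ng it had 0, 1, 1 and 1 counts in the WT libraries and 7, 7, 4 and 19 counts in the GFAP-IL6 libraries. This corresponded to 0 to 0.752 CPM and 0.922 to 6.53 CPM, so that the groups did not overlap. Pooled over the 4 libraries of each genotype, 37 counts against 3 gave a ratio of 13.7 with an exact 95% interval of 4.35 to 69.6, which covers counting error only. At 10 ng the counts were 4, 0, 3 and 0 in WT and 2, 3, 5 and 21 in GFAP-IL6, and here the groups overlapped. The pooled ratio was lower there, at 4.15 (exact 95% interval 1.79 to 11.2), and was 7.51 (3.87 to 16.3) over all inputs. At 1 and 0.5 ng every WT library was at 0, where 3 counts would correspond to between 1.14 and 8.19 CPM, and 3 of the 8 GFAP-IL6 libraries held 2 to 5 counts. Lcn2 did not pass edgeR's filter on low counts in any fit. With no filter it was called at 50 ng (log2 fold change 3.62 ± 0.90, edgeR adjusted p = 0.0149), but not by DESeq2 (adjusted p = 0.0872). Neutrophils carry Lcn2 too, and the 5 neutrophil markers summed to between 0.835 and 3.01 CPM in WT and between 0.933 and 9.68 CPM in GFAP-IL6 at 50 ng (two-sided exact permutation p = 0.486). Their part in the Lcn2 counts was not tested.

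Osmr encodes the receptor subunit for oncostatin M, an interleukin 6 family cytokine. It had the largest fitted fold change of the 5 genes tested at 50 ng, and much of that came from a single replicate. Osmr passed the filter on low counts at 50 ng and in the sums only through its level in the GFAP-IL6 libraries. Its place among the tested genes is therefore not independent of its genotype difference. At 50 ng it was at 0.553, 3.76, 0.278 and 0.663 CPM in WT and 3.77, 2.80, 3.00 and 12.01 CPM in GFAP-IL6. Replicate 4 of GFAP-IL6 stood far above the rest there, and it was also the highest at 10 ng (6.20 CPM, others 0.492 to 1.88) and at 1 ng (7.86 CPM, others 0 to 0.557). The log2 fold change was 2.68 ± 0.64 (SE) at 50 ng and 2.01 ± 0.63 in the sums (edgeR adjusted p = 0.110 and 0.270). Without GFAP-IL6 replicate 4 these became 1.85 ± 0.64 and 1.15 ± 0.70 (edgeR adjusted p = 0.440 and 0.869). Without WT replicate 2, the highest WT library at 50 ng, they became 3.40 ± 0.68 and 2.403 ± 0.68 (edgeR adjusted p = 0.0547 and 0.193). With no filter on low counts Osmr was called at 50 ng (edgeR adjusted p = 0.00112). At 0.5 ng replicate 4 had no Osmr count, and GFAP-IL6 replicate 3 held all 13 counts of that input.

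Cd44, the receptor for hyaluronan, was at 1.66, 6.77, 0.835 and 1.72 CPM in WT and 3.19, 1.87, 1.61 and 2.69 CPM in GFAP-IL6 at 50 ng. The groups overlapped throughout, and the highest library was a WT one. In the sums its log2 fold change was 0.42 ± 0.55 (edgeR adjusted p = 0.867), with a 95% interval of -0.65 to 1.49 that leaves changes of either sign within reach. At 0.5 ng GFAP-IL6 replicate 3 held 26 counts while the other 3 libraries of that group held none. Steap4 was the scarcest by count, with 3 counts in WT and 9 in GFAP-IL6 at 50 ng, 5 and 12 at 10 ng, and 0 in all 16 libraries at 1 and 0.5 ng. Of the 12 GFAP-IL6 counts at 10 ng, 11 came from replicate 1. Steap4 did not pass the filter on low counts at any input. With no filter its log2 fold change at 50 ng was 1.45 ± 1.16 (SE, edgeR adjusted p = 0.771), so a change in Steap4 was not resolved.

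Whether the genotype difference itself depended on input was tested as an interaction in a single edgeR fit of all 32 libraries, in which 5 of the 8 genes (Gfap, Vim, Serpina3n, Cp and Osmr) passed the filter. None of them passed at 10, 1 or 0.5 ng against 50 ng, where 0%, 0% and 0.206% of all genes did. This fit shares 1 estimate of spread over all inputs, with a biological coefficient of variation of 0.526 against 0.214 at 50 ng alone. At an unadjusted p under 0.05 the interaction held 1 of 12164 genes at 10 ng and 327 at 1 ng, each against 50 ng. The Gfap difference at 50 ng was itself not called in this fit (edgeR adjusted p = 0.408). Limma with weights for each input, at 148 and 520 genes by unadjusted p, and DESeq2, at 3 and 515, called none of the 8 genes either. For Gfap the difference of log2 fold changes was 0.30 ± 0.76 (SE) at 10 ng, -0.40 ± 0.78 at 1 ng and -0.66 ± 0.77 at 0.5 ng. Its 95% interval at 0.5 ng, -2.18 to 0.85, covers a loss of nearly the whole genotype difference as well as no loss. For Cp at 10 ng the difference was 1.10 ± 1.42. Averaged over genotypes, none of the 5 genes was called for input either. The share of all genes called was 0%, 0.263% and 4.49% at 10, 1 and 0.5 ng. Library totals were also lower at 1 and 0.5 ng. After thinning of all 32 libraries to the smallest total, 2 of 8306 genes were called higher and 0 lower at 0.5 ng. The part of depth in the input effect was not tested. In the fit without thinning Osmr moved most, by -3.13 ± 1.28 at 0.5 ng against 50 ng (edgeR adjusted p = 0.147), and Gfap by 0.18 ± 0.39. Osmr passed the filter here only through GFAP-IL6 libraries. That fit took libraries of the same number as independent. With a term for each genotype and replicate number, none of the 5 genes was called for interaction or input (Gfap interaction at 0.5 ng, edgeR adjusted p = 0.947).

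Further genes of the reactive panel were read in the same way. Of S1pr3, Timp1, Hspb1, Cxcl10 and Aspg, 3 passed the filter at 50 ng and none was called. Aspg, which encodes an asparaginase, had a log2 fold change of 1.27 ± 0.47 (SE) at 50 ng and 1.52 ± 0.64 at 10 ng (edgeR adjusted p = 0.702 and 0.594). Hspb1, a small heat shock protein, was at 0.54 ± 0.30 and 0.69 ± 0.32, and S1pr3, a sphingosine phosphate receptor, at -0.10 ± 0.42 and -0.29 ± 0.54. Timp1, a metalloproteinase inhibitor, passed the filter in the sums only, at -0.35 ± 0.77, and Cxcl10, a chemokine, in none of these 3 fits. Of 12 astrocyte genes linked to inflammation (the A1 list), 10 were tested at 50 ng and none was called, with a median log2 fold change of 0.47 beside 0.00 for all genes. The median was lower at 10 ng, at 0.16 over 9 genes of which 6 were positive, was 0.26 in the sums, and was -0.46 at 0.5 ng, again with none called. Of 12 linked to ischaemia (the A2 list), 5 were tested with a median of -0.06, and none was called at single inputs. In the sums Cd14, an endotoxin co-receptor that microglia also carry, was the only A2 gene called (1.38 ± 0.31, edgeR adjusted p = 0.0347).

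Of 15 genes for interleukin 6 family receptors and STAT3 signalling, 8 of the 10 tested at 50 ng and 10 of the 12 tested at 10 ng had a positive log2 fold change, with medians of 0.40 and 0.33 beside 0.00 for all genes in both fits, and none was called. In the sums the count was 13 of 15, with a median of 0.42. Stat3 itself reached an adjusted p of 0.0317 in edgeR in the sums with a log2 fold change of 0.96 ± 0.21, just under the fold limit for a call, and was at 0.50 ± 0.25 at 50 ng. Socs3, the feedback inhibitor that STAT3 induces, was at 2.11 ± 0.63 in the sums (edgeR adjusted p = 0.209).

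The astrocyte markers outside the reactive panel moved little beside Gfap. Of 12 such markers (Aqp4, Slc1a2, Aldh1l1 and others), all were tested and none was called at 50 ng, at 10 ng or in the sums, with median log2 fold changes of 0.07, 0.04 and 0.10. Their summed level at 50 ng was 3905 to 4560 CPM in WT and 4202 to 5477 CPM in GFAP-IL6, which overlapped (two-sided exact permutation p = 0.0857). Microglia markers did differ. The 8 markers summed to between 358 and 382 CPM in WT and between 419 and 664 CPM in GFAP-IL6 at 50 ng, and to between 324 and 379 CPM and between 449 and 666 CPM at 10 ng, so that the groups were apart (two-sided exact permutation p = 0.0286 at each). Itgam, an integrin subunit of microglia, was called at 50 ng (2.27 ± 0.31, edgeR adjusted p = 0.000491) but not at 10 ng (1.37 ± 0.34, edgeR adjusted p = 0.0670). At 50 ng 7 of the 8 markers had a positive log2 fold change with a median of 0.57, and only Itgam was called. P2ry12 went the other way, at -0.20 ± 0.21 (SE). Microglia express some of the 8 genes described here, Vim and Cd44 among them, and the part of microglia in their levels was not tested.

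**Figure D4:**
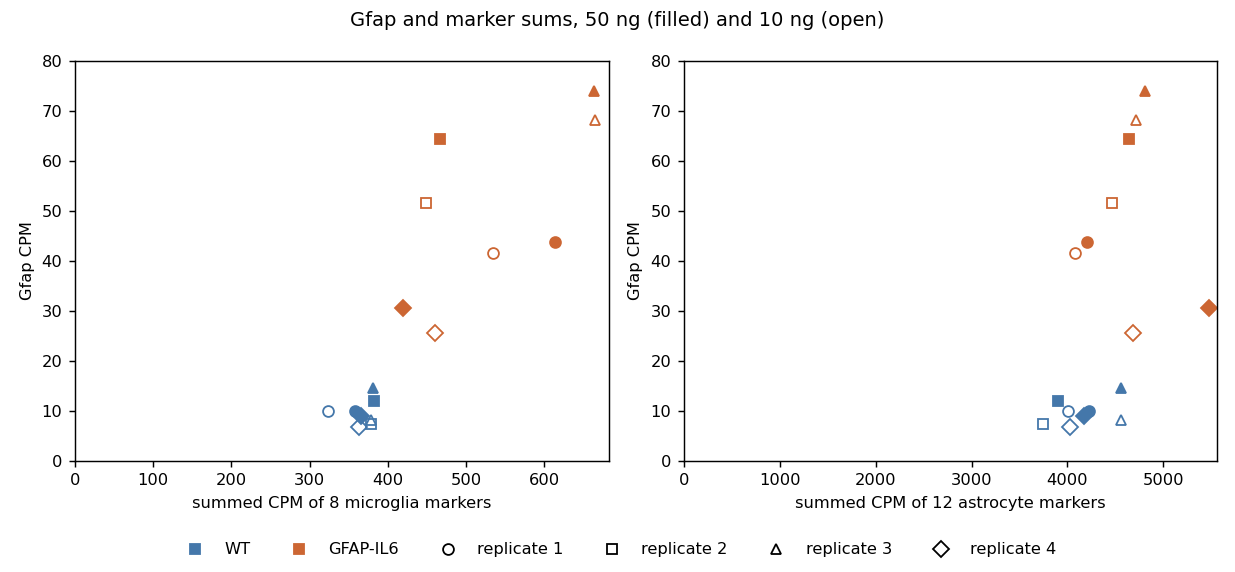
Gfap CPM (y axis) against the summed CPM of 8 microglia markers (left) and of 12 astrocyte markers (right) in the libraries at 50 ng (filled) and 10 ng (open), WT in blue and GFAP-IL6 in orange, with the marker giving the replicate number. The genotypes are apart on the microglia axis, from at most 382 CPM in WT to at least 419 CPM in GFAP-IL6, and overlap on the astrocyte axis.

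Likeness to Gfap across libraries was ranked among the genes that passed the filter on low counts at both 50 and 10 ng, which left out Lcn2, Osmr, Cd44 and Steap4. Over the 16 libraries at 50 and 10 ng and among 11611 genes, Pearson's r of log2(CPM + 1) with Gfap was highest for Lyz2 (0.960), Ctss (0.958), Lrg1 (0.958), C1qc (0.952) and Scgb3a1 (0.952). Lyz2, Ctss and C1qc are genes of microglia and macrophages, encoding a lysozyme, a lysosomal protease and a complement subunit. Serpina3n reached 0.699, Cp 0.616 and Vim 0.508. These values hold the genotype difference that the 16 libraries share. With the mean of each group removed, r was 0.787 for Lyz2, 0.747 for Ctss, 0.850 for Lrg1, 0.717 for C1qc and 0.649 for Scgb3a1, and it was 0.781 for Serpina3n, 0.101 for Cp and 0.036 for Vim. Within a group, Serpina3n thus followed Gfap from library to library about as closely as the 5 highest-ranked genes did. Its own genotype difference did not pass. The 5 had been ranked with the genotype difference included, and no ranking by r within groups was made. Within GFAP-IL6 the libraries were ordered 3, 2, 1, 4 from highest to lowest Gfap at both 50 and 10 ng. Libraries of the same number may come from the same RNA, so the 16 are not fully independent.

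Genes next to the 8 were checked because the sources used here do not say if reads were counted by strand. In the GENCODE annotation of GRCm38, Gfap lies at chr11:102887336-102900912 on the minus strand, and Fam187a at chr11:102885169-102886731 on the plus strand, so that their 3' ends face each other 604 bases apart. Fam187a was at 0 to 1.11 CPM in WT and 3.73 to 10.9 CPM in GFAP-IL6 at 50 ng, and at 0 to 2.02 and 8.45 to 13.3 CPM at 10 ng. It was called at both inputs, with log2 fold changes of 4.13 ± 0.56 and 3.09 ± 0.54 (SE, edgeR adjusted p = 0.000445 and 0.00124). Fam187a passed the filter on low counts only through its level in the GFAP-IL6 libraries, so its entry into these fits was not independent of the difference. The direction was that of Gfap, and a part of reads from the Gfap locus in the Fam187a counts was not tested. Gm26668, a long noncoding RNA whose span on the plus strand covers all of Gfap, had no count at 50 ng and 8 counts at 10 ng, of which 5 were in WT. Cp, at chr3:19957054-20009145 on the plus strand, is overlapped over 13201 bases by Hps3 on the minus strand. Hps3 was at 0.57 ± 0.36 (log2 fold change, SE) at 50 ng and at 0.20 ± 0.59 at 10 ng, and was not called. Gm30835, 110 bases from Steap4, had no count at 50 or 10 ng. The other genes lie at chr2:13573927-13582826 (Vim), chr12:104406729-104414329 (Serpina3n), chr2:32384633-32388252 (Lcn2), chr2:102811141-102901665 (Cd44), chr15:6813577-6874969 (Osmr) and chr5:7960457-7982213 (Steap4), and no counted gene lay within 1000 bases of these except Gm30835.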

How the data were processed

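The authors trimmed poly(A) stretches of at least 12 bases after read position 25, aligned single-end reads to mm10 with STAR 2.4 and assigned them to GENCODE genes by featureCounts. The deposited values are raw counts per gene and library, not normalized. The labels name hg19 as the build, but the gene identifiers are mouse. The strand setting of the counting and molecular identifiers were not given in the sources used here. Groups came from the genotype and input in the labels.

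CPM was computed from total counts. Each input was fitted with edgeR 4.0.16 in R 4.3.3 (TMM, filterByExpr, quasi-likelihood test, no covariates) over all genes, with Benjamini-Hochberg adjustment, a call needing adjusted p under 0.05 together with a log2 fold change beyond 1 in size. The authors used DESeq2, run here (1.42.0) as an alternative beside limma 3.58.1. SE was derived from the F statistic. Interaction and input effects came from a single fit of all 32 libraries, where interaction was called by adjusted p alone. Single values were tested by exact permutation in Python 3.11.15 (scipy 1.17.1, pandas 2.3.3, numpy 2.4.6), with matplotlib 3.10.9 for plots.

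Genes and lists were chosen with earlier results of these data known. All 8 genes, Il6, 5 further panel genes, list genes called at 50 or 10 ng, the 5 genes most like Gfap and counted genes within 1000 bases are named. Stat3, Socs3 and Cd14 were named after their values were seen. Labels do not say whether equal replicate numbers mark the same animal across inputs, and p-values measure the spread between the 4 libraries of a group. Over 48 replicate pairs, the chi-square of their counts was never under 2.37 per degree of freedom, so no pair looked like a split of the same sequenced library. That check cannot show whether libraries share an animal. Each library was counted as 1 replicate. Every count column was matched to a library.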

Additional observations from a re-analysis of the deposited data

Results flagged for a closer look

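Of 56 groups of 4 libraries with a count of the gene, taken over the 8 genes, 14 held a library whose gap to its nearest neighbour exceeded Dixon's 95% limit for 4 values, a limit that about 1 group in 20 passes by chance when values are continuous. That rate does not apply to the sparse groups, since in 5 of the 14 the other 3 libraries were at 0 and any count passes the limit. Gfap had 1 such library, in GFAP-IL6 replicate 1 at 0.5 ng, at 9.61 CPM against 57.5 to 62.4 CPM in the other libraries. Osmr had them in GFAP-IL6 replicate 4 at 50 ng (12.01 CPM) and at 1 ng (7.86 CPM), in GFAP-IL6 replicate 3 at 0.5 ng (6.79 CPM), and in WT at 50 ng (replicate 2, 3.76 CPM) and 1 ng (replicate 1, 0.655 CPM on 1 count). Cd44 had them in WT replicate 2 at 50 ng (6.77 CPM), WT replicate 4 at 1 ng (1.23 CPM) and GFAP-IL6 replicate 3 at 0.5 ng (13.6 CPM). Cp had them in WT replicate 1 at 1 ng (27.5 CPM) and GFAP-IL6 replicate 3 at 0.5 ng (9.93 CPM). Lcn2 in GFAP-IL6 replicate 2 at 0.5 ng (6.78 CPM on 2 counts) and Steap4 at 10 ng in WT replicate 3 (1.01 CPM) and GFAP-IL6 replicate 1 (2.71 CPM) complete the list. GFAP-IL6 replicate 3 at 0.5 ng thus stood apart for Osmr, Cd44 and Cp.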

How the results depend on the processing

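The call of Gfap at 50 and 10 ng and in the sums held with DESeq2's size factors and test, without a filter on low counts, with the replicate block and without any single replicate. It was lost (0 called) at 50 and 10 ng after thinning of each library to the smallest total, with an adjusted p of 0.247 and 0.981, and in a single fit of all 32 libraries, with 0.408 and 0.157. Without a filter, 3 of the 8 genes were called at 50 ng (Gfap, Osmr and Lcn2). With the replicate block, 2 were called (Gfap and Osmr, adjusted p = 0.0423 for Osmr). WT and GFAP-IL6 libraries of the same number correlated in their deviations at 0.036 to 0.189 at 50 ng, so the number was not taken to pair them, and the block changed no other edgeR call of the 8 genes. Across inputs within a genotype, a library correlated best with its own number in 3 or 4 of 4 cases at each input. Thinning turned the sign of Cp at 50 ng to -0.11, and leaving out a replicate gave -0.020 to 0.82 for Cp at 1 ng and -0.37 to 1.01 for Serpina3n at 0.5 ng. For the ratios of Gfap to other genes, 10 of the 12 pairs passed with a pseudocount of 0.5 and 0 passed with the replicate block or without any single replicate, where the smallest possible p is 0.125 and 0.0571. Except where the construction of the alternative shows it, the cause was not tested. Lcn2, Steap4, Cd44 and Osmr rested on few counts in most libraries at every input.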

Other observations

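The 4 choroid plexus markers summed to 3385 CPM at 50 ng and 3019 CPM at 10 ng in WT replicate 3, against 31.4 to 339 CPM in the other libraries at these inputs. Cp, which choroid plexus also expresses, was at 6.68 and 4.55 CPM in WT replicate 3 and lay within the range of the other WT libraries. Fam187a, the gene whose 3' end faces that of Gfap, ranged from 0 to 17.5 CPM in GFAP-IL6 and from 0 to 0.803 CPM in WT at 1 ng, and reached 5.51 and 5.32 CPM in replicate 4 of GFAP-IL6 and WT at 0.5 ng. Of the genes that followed Gfap across libraries, Scgb3a1, a secretoglobin, had a log2 fold change of 3.53 at 50 ng and Lrg1, a secreted glycoprotein of the acute phase, of 2.14.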
